A study of Mus musculus with 12 samples.

Results

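The genes described here are 10 mouse genes that are induced in reactive astrocytes or encode acute phase proteins: Lcn2, Saa3, Cp, Serpina3n, Steap4, S1pr3, Hspb1, Cd44, Aspg and Amigo2. They were chosen by name, with earlier results of these data known. All were found, as 10 of the 27587 genes listed in either of 2 deposited count tables. RNA sequencing was done on total RNA of primary cortical astrocytes in 12 libraries, 3 in each of 4 groups. The GADD45G group had been transduced with a virus expressing GADD45G and was set against a group given GFP, and the shGADD45G group carried a short hairpin RNA against Gadd45g and was set against a group given shLuc. The cells of all groups were wild type C57BL/6J, taken from neonatal cortices at postnatal day 3. They were grown in medium with 10% fetal bovine serum until transduction and in serum-free C2 medium for 1 week after it, so every group, controls included, was transduced and serum-deprived. GADD45G is a small stress-induced protein that switches on a kinase cascade leading to p38 and JNK. Which species the introduced GADD45G came from, the hairpin sequence and the promoters used are not given in the labels. Whether the 3 libraries of a group are separate cultures is not in the labels, so the spread behind each p-value may be technical.

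Astrocytes answer injury, infection and inflammatory cytokines with a state called reactive, in which a shared set of genes rises. In published mouse gene panels Lcn2, Steap4, S1pr3, Hspb1, Cd44, Cp, Serpina3n and Aspg are commonly listed as pan-reactive genes and Amigo2 as a gene of the A1 state that inflammatory cytokines induce. Saa3, like Lcn2, Cp and the Serpina3 family, belongs to the acute phase response, in which cytokines that signal through STAT3, C/EBP proteins and NF-kB drive secreted proteins in liver and other tissues.

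Depth over listed genes was 17810863 to 18777231 counts in GADD45G, 19480657 to 20756461 in GFP, 15626655 to 18282315 in shGADD45G and 16179509 to 18970492 in shLuc. All 14 astrocyte markers were detected in every group. In the GADD45G group 1 library stood apart, and the shGADD45G libraries all differed among themselves. GADD45G library 3 carried transcripts of other tissues: its lung epithelium markers summed to 1500.9 CPM (counts scaled to a common library size), against 2.07 and 1.03 in the other GADD45G libraries and 3.68 to 5.72 in GFP, where Sftpa1, Sftpd, Scgb3a2 and Lamp3 were at 0 counts. Its hepatocyte markers summed to 160.5 CPM, its red blood cell markers to 368.5 CPM and its neutrophil markers to 38.5 CPM, against at most 1.01, 0.272 and 0.381 CPM in the other GADD45G libraries. Between shGADD45G libraries the chi-square divided by its degrees of freedom was 24.9 for 1 and 2, 41 for 1 and 3 and 20.5 for 2 and 3, whereas in GFP and shLuc pairs it was 2.11 to 3.15. By this measure no single shGADD45G library stands out. Fits without library 1 are printed because, of the fits that leave out 1 library of that experiment, this one moved the number of called genes among the 10 most, a choice made after the values were seen. The tests of the 10 genes are given with and without GADD45G library 3 or shGADD45G library 1. The values of named genes outside the 10, the levels in the 4 groups and the likeness use all libraries. Gadd45g itself had 149.7, 143.8 and 138.9 CPM in GADD45G libraries, against 121.4, 133.1 and 134.0 in GFP, and 67.2, 147.4 and 121.8 CPM in shGADD45G libraries, against 139.9, 150.8 and 129.5 in shLuc. Exact two-sided permutation tests gave p = 0.1, the smallest that 3 against 3 allows, and p = 0.3. In edgeR the log2 fold changes were 0.15 (SE 0.055, adjusted p = 0.0298) and -0.32 (SE 0.22, adjusted p = 0.408). Without GADD45G library 1, or without any GFP library, the call of the increase ended (adjusted p = 0.0658 to 0.137). An increase of 1.11-fold means that these counts do not show a strong overexpression of the mouse gene, and whether the introduced sequence is counted as Gadd45g was not tested. In the shGADD45G libraries the targeted gene was below all shLuc values in libraries 1 and 3 and inside them in library 2, and directions below refer to the libraries as labelled.

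With GADD45G, 8 of the 9 genes with enough counts for the test rose over GFP. Lcn2 rose most, 35.8-fold, followed by Cp at 11.8-fold, and Serpina3n, Steap4, Hspb1, Cd44 and S1pr3 rose between 2.47-fold and 4-fold. The eighth, Saa3, was not called without GADD45G library 3. Amigo2 was not called and Aspg had too few counts to be tested. The call rested on edgeR's quasi-likelihood test at a Benjamini-Hochberg adjusted p under 0.05, by which 30.6% of the 15418 genes tested were higher and 29.7% lower. None of the 9 was called lower, and at an unadjusted p under 0.05 the number lower was 0 with edgeR, DESeq2 and limma-voom alike. Without GADD45G library 3, 7 of the 9 were higher, beside 32.5% of all genes tested, and 32.1% of all genes were lower. The median log2 fold change of the 9 was 1.80, against 0.014 over all genes tested. Since the genes were chosen with earlier results of these data known, these comparisons with all genes are descriptions. Markers of cell types moved in the same comparison. Of 18 microglia and macrophage markers 0 were called higher and 3 lower, and 0 and 15 without GADD45G library 3. Their median log2 fold change was 0.01, and -1.39 without that library. The astrocyte markers summed to 10805.9 to 11405.0 CPM in GADD45G, against 7786.2 to 7861.3 CPM in GFP, and 11 of the 14 were called higher and 2 lower. Neuron markers summed to 71.1 to 78.4 CPM in GADD45G, against 241.3 to 248.7 CPM in GFP, and all 7 tested were called lower. Oligodendrocyte lineage markers summed to 117.1 to 131.9 CPM in GADD45G, against 584.7 to 598.7 CPM in GFP, although 3 of the 7 tested were higher and 2 lower. Endothelial markers summed to 14, 14.3 and 81.4 CPM in GADD45G, against 135.8 to 143.7 CPM in GFP, and fibroblast and mural cell markers to 440.7, 452.3 and 792.9 CPM in GADD45G, against 950.2 to 973.4 CPM in GFP. Of the last 2 lists, 2 of 3 and 4 of 7 tested markers were called higher, and 1 and 3 lower. Without GADD45G library 3, 1 and 2 were called higher, and again 1 and 3 lower. In shLuc, the other control, neuron markers summed to 92.2 to 94.2 CPM and oligodendrocyte lineage markers to 115.5 to 123.6 CPM. Endothelial markers summed there to 18.7 to 21.2 CPM and fibroblast and mural cell markers to 323.3 to 330.9 CPM. These 4 sums, each in the scaling of its own experiment, were all below those of GFP. Astrocyte markers went the other way, at 14152.5 to 14651.8 CPM in shLuc, against 7786.2 to 7861.3 CPM in GFP. So did microglia and macrophage markers, at 582.9 to 667.3 CPM in shLuc, against 244.1 to 252.6 CPM in GFP. The controls thus differed in the markers too. The part of the markers in the changes of the 10 genes was not tested. In a bulk sample, a higher level may come from more RNA per cell or from more cells that express the gene, and these cannot be told apart.

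**Figure D1:**
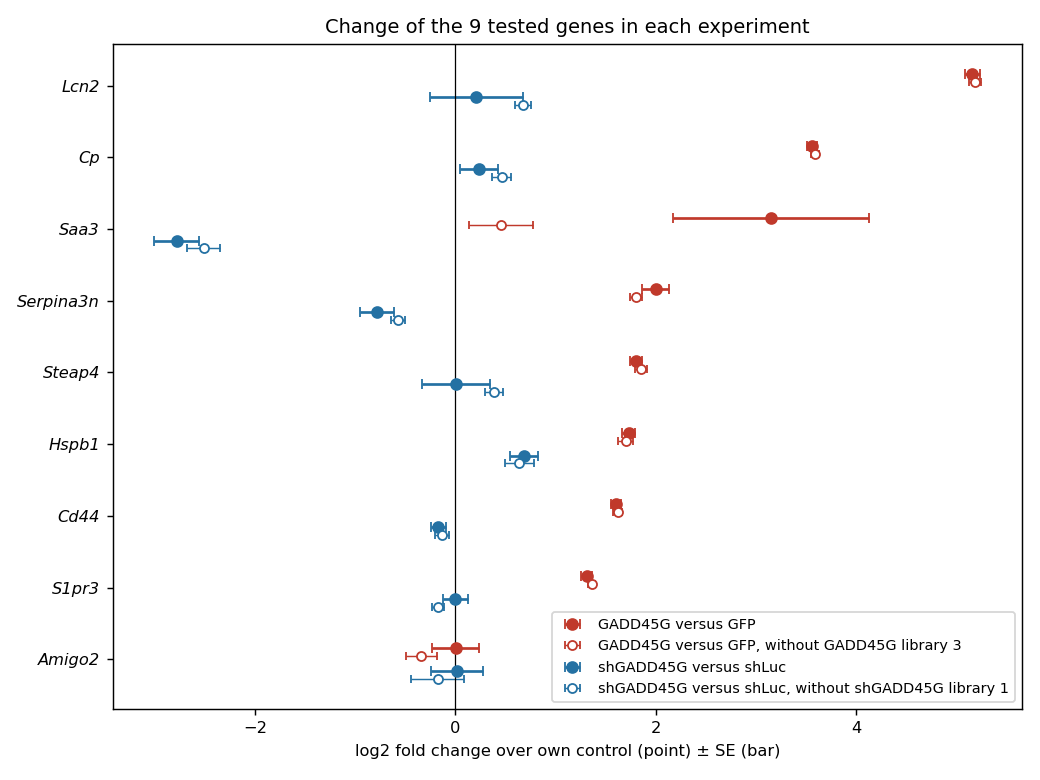
Log2 fold change (point) and its standard error (bar) of the 9 tested genes, for GADD45G over GFP in red and shGADD45G over shLuc in blue, with open points for the fits without GADD45G library 3 or without shGADD45G library 1. Red points of 7 genes lie between 1.31 and 5.16 with and without library 3 near the same place, Saa3 drops to 0.45 without it, and in blue only Saa3 and Serpina3n lie left of 0 by more than 0.5.

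Among the secreted proteins, Lcn2 showed the largest response. Lcn2 (ENSMUSG00000026822, mm10 chromosome 2, 32384633 to 32388252, minus strand) encodes lipocalin 2, a small protein that binds iron-carrying bacterial siderophores and is released by reactive astrocytes. It had 461.6, 416.7 and 416.8 CPM in GADD45G libraries 1 to 3, against 12.9, 11 and 12.3 CPM in GFP. The groups were far apart, and the doubtful library 3 was within the range of the others. The fitted log2 change was 5.16 (SE 0.074, adjusted p = 2.72e-12), and 5.19 without library 3. By size of increase Lcn2 was at rank 50 of the 15418 genes tested.

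Saa3 (ENSMUSG00000040026, chromosome 7, 46711998 to 46715700, minus strand) encodes serum amyloid A3, an acute phase apolipoprotein made outside the liver, by macrophages and epithelia among others. It had 1.68, 1.47 and 27.6 CPM in GADD45G libraries 1 to 3 (30, 27 and 498 counts), against 1.13, 1.24 and 1.07 CPM in GFP (22, 26 and 22 counts). Libraries 1 and 2 were barely above the GFP range, and library 3 was far above everything else in that experiment. Its log2 fold change was 3.15 (SE 0.98, adjusted p = 0.0165). Without library 3 it was 0.45 (SE 0.32, adjusted p = 0.219), and without any GFP library in turn the adjusted p was 0.0746 to 0.0804. The authors' deposited table gives Saa3 a log2 fold change of 3.147 with an adjusted p of 1. In library 3 the liver paralogs Saa1 and Saa2, at 0 counts in the other GADD45G libraries and in GFP, had 128 and 99 counts, and the microglia and macrophage markers summed to 726.5 CPM, against 107.2 and 108.1 CPM in GADD45G libraries 1 and 2 and 244.1 to 252.6 CPM in GFP. The part of these other tissues in the value of Saa3 was not tested.

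Serpina3n (ENSMUSG00000021091, chromosome 12, 104406729 to 104414329, plus strand) encodes a secreted serine protease inhibitor, the closest mouse relative of human alpha-1-antichymotrypsin, and is among the most widely used markers of reactive astrocytes. It had 92.8, 91.2 and 133.0 CPM in GADD45G libraries, against 28.1, 25.9 and 25.2 CPM in GFP. Every GADD45G library was above every GFP library, and library 3 was the highest. On the log2 scale the change was 2.00 (SE 0.13, adjusted p = 2.22e-07), and 1.80 (SE 0.060) without library 3. The neighbouring paralogs Serpina3m, Serpina3k, Serpina3g, Serpina3c and Serpina3f had 119, 75, 56, 39 and 26 counts in library 3, against at most 1 count each in GADD45G libraries 1 and 2 and 0 in GFP. How the counting treated reads shared between members of this cluster is not stated in the labels. The level of Serpina3n in library 3 is therefore less certain than in the others.

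**Figure D2:**
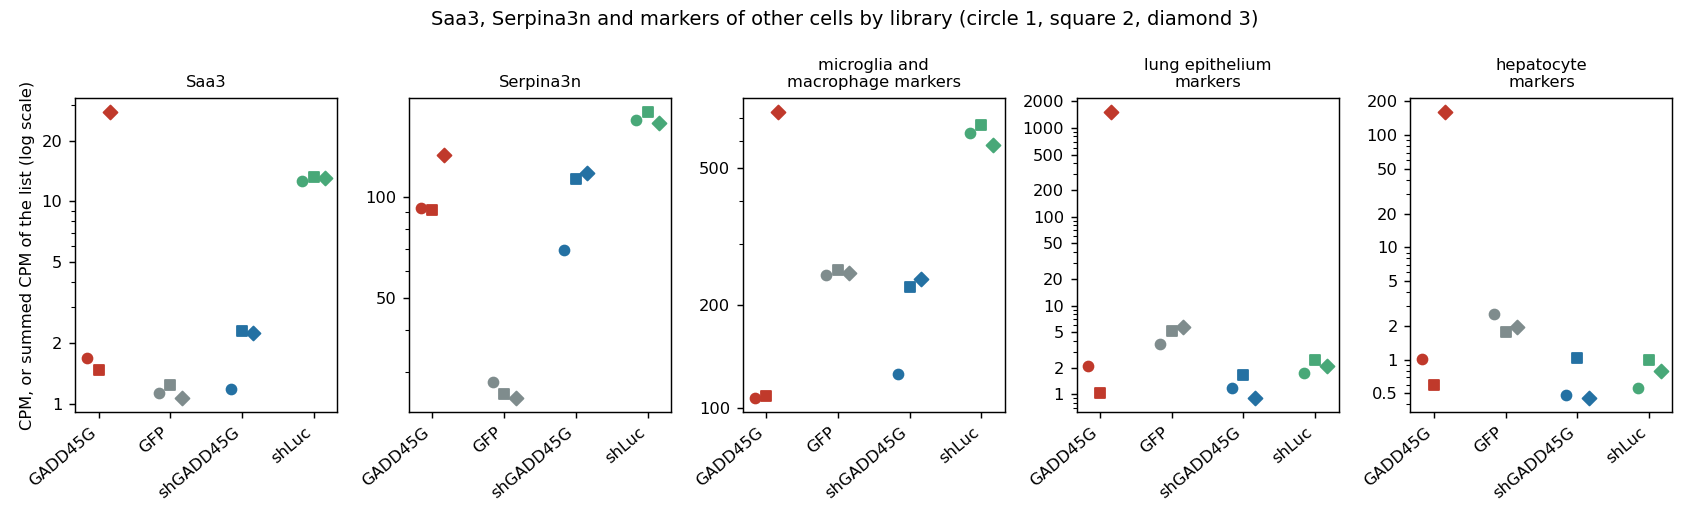
Level of Saa3 and Serpina3n and summed level of 18 microglia and macrophage, 9 lung epithelium and 9 hepatocyte markers (CPM, logarithmic axes) in each library. GADD45G library 3 (red diamond) stands at the top of the GADD45G group in all 5 panels, and the shLuc libraries are above the shGADD45G libraries for Saa3, Serpina3n and the microglia and macrophage markers.

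The promoter window of Saa3 is shown because its single motif match is of a C/EBP protein, the factor family named for the acute phase genes. The run covers chr7:46715701-46715926 (GRCm38.p6, the build of mm10, minus strand), the 226 bases that lie before both the RefSeq start and the gene start in the tables, read from RefSeq. Capitals mark the match to TTGCNNAA on the opposite strand, at base -99 from the RefSeq start. The 24 bases between the end of the run and that start are left off.
Saa3: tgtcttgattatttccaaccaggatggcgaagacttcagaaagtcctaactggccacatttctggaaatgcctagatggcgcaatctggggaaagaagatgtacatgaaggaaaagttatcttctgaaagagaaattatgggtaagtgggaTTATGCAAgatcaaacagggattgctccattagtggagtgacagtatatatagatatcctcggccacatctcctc
A match is a description of letters and no evidence of binding.

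The metal-handling members, Cp and Steap4, both rose. Cp (ENSMUSG00000003617, chromosome 3, 19957054 to 20009145, plus strand) encodes ceruloplasmin, a copper-carrying ferroxidase that astrocytes hold on their surface and that helps iron leave the cell. It had 936.8, 979.8 and 903.7 CPM in GADD45G libraries, against 81.4, 80.8 and 77.2 CPM in GFP. The 3 GADD45G libraries differed little among themselves and none came near GFP. This gave a log2 fold change of 3.56 (SE 0.050, adjusted p = 2.72e-12), and 3.59 without library 3. An exon of Hps3, on the other strand, overlaps Cp, and whether counting used the strand is not stated in the labels. Hps3 had 27.7, 29.6 and 29.9 CPM in GADD45G libraries, against 19.5, 21.8 and 19.1 CPM in GFP, a log2 fold change of 0.53 that is far below that of Cp.

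Steap4 (ENSMUSG00000012428, chromosome 5, 7960457 to 7982213, plus strand) encodes a membrane metalloreductase that reduces iron and copper ions for uptake and is induced by inflammatory cytokines. It had 92.6, 101.2 and 87.8 CPM in GADD45G libraries, against 26.3, 27.2 and 27.2 CPM in GFP. The groups did not overlap. The fitted log2 change was 1.80 (SE 0.060, adjusted p = 7.71e-10), and 1.85 without library 3. Its promoter window is shown because it was the only one of those of the 10 genes with matches to 3 of the motifs searched. The run is chr5:7960222-7960456 (GRCm38.p6, plus strand, RefSeq), 235 bases before both starts. Capitals mark, from the left, the NF-kB matches at -250 and, on the opposite strand, -226, the STAT match TTCNNNGAA at -116 and the C/EBP match at -87, none of which overlap. Positions count from the RefSeq start, and the 15 bases between the end of the run and that start are left off.
Steap4: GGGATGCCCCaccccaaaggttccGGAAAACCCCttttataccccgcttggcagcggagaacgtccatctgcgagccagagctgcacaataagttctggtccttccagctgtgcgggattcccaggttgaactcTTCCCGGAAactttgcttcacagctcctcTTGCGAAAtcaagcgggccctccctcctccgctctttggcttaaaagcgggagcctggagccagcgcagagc
Of 32851 RefSeq windows of the same 250 bases before a start, searched on both strands, 7.02% held the STAT motif, 9.56% the C/EBP motif and 7.25% the NF-kB motif. The C/EBP motif stood in the windows of Lcn2 (TTGCTCAA at -216), Saa3, Steap4 and the second window of Cp, 4 of the 10 genes. Those windows end at RefSeq starts. The matches of Lcn2 and Cp lie past the gene start listed with the counts, inside the gene. Only those of Saa3 and Steap4 lie before both starts. STAT and NF-kB matches were found in the window of Steap4 alone among the 10. The AP-1 motif TGANTCA, in 6.75% of windows, stood in that of Cp, at -177.

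The genes for iron and copper handling that are not among the 10 moved in both directions. With GADD45G, 14 of the 23 tested rose and 8 fell (14 and 7 without library 3), beside 30.6% and 29.7% of all genes tested, with a median log2 fold change of 0.23. Hmox1, which encodes the heme-degrading enzyme heme oxygenase 1, rose with a log2 fold change of 2.81 (SE 0.050, adjusted p = 7.9e-12) and Fth1, the ferritin heavy chain, by 1.12 (SE 0.047, adjusted p = 4.57e-09). The related reductase Steap2 rose by 0.88 (SE 0.067, adjusted p = 7.11e-07).

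S1pr3 and Cd44 stand for the receptors at the cell surface. S1pr3 (ENSMUSG00000067586, chromosome 13, 51408639 to 51422797, plus strand) encodes a G protein-coupled receptor for the lipid sphingosine 1-phosphate. It had 475.7, 475.9 and 421.6 CPM in GADD45G libraries, against 182.5, 189.3 and 183.9 CPM in GFP. Library 3 was the lowest of the GADD45G libraries and still above all of GFP. Its log2 fold change was 1.31 (SE 0.054, adjusted p = 4.6e-09), and 1.36 without library 3. The antisense transcript Gm32834 overlaps it and had 0.559, 0.708 and 0.610 CPM in GADD45G libraries, against 1.18, 1.77 and 1.12 CPM in GFP. Of 16 tested genes of sphingosine 1-phosphate signalling, 6 rose and 7 fell, with and without library 3, which is near the 30.6% and 29.7% over all genes tested. S1pr1, the other major astrocyte receptor for this lipid, fell by 0.64 on the log2 scale (SE 0.050, adjusted p = 9.22e-07). Sphk1, the kinase that makes the lipid, had 4.81, 5.12 and 11.8 CPM in GADD45G libraries, against 0.409, 0.526 and 0.342 CPM in GFP, a log2 fold change of 4.07 (SE 0.42, adjusted p = 7.61e-06).

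Cd44 (ENSMUSG00000005087, chromosome 2, 102811141 to 102901665, minus strand) encodes the main receptor for the matrix polymer hyaluronan. It had 215.6, 213.8 and 206.7 CPM in GADD45G libraries, against 69.2, 67.5 and 72.7 CPM in GFP. Neither group varied much and they did not overlap. On the log2 scale the change was 1.60 (SE 0.049, adjusted p = 4.1e-10), and 1.62 without library 3. Of 15 tested genes for hyaluronan and CD44 partners, 6 rose and 4 fell (6 and 5 without library 3), which is also near the 30.6% and 29.7% over all genes tested. They included Cemip, which encodes a protein needed for hyaluronan breakdown and rose with a log2 fold change of 3.86 (SE 0.060, adjusted p = 4.34e-12), and Msn, encoding moesin, which ties CD44 to actin, at 1.26 (SE 0.039, adjusted p = 4e-10).

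Amigo2 (ENSMUSG00000048218, chromosome 15, 97244125 to 97247287, minus strand) encodes a leucine-rich adhesion protein and differed from the other surface members. It had 6.54, 5.17 and 10.6 CPM in GADD45G libraries, against 6.86, 8.42 and 6.99 CPM in GFP. Library 3 was above the GFP range and libraries 1 and 2 were below it, so the groups overlap. This gave a log2 fold change of 0.01 (SE 0.23, adjusted p = 0.986), and -0.34 (SE 0.16, adjusted p = 0.0603) without library 3. Pced1b overlaps it on the other strand, with 7.82, 7.02 and 9.31 CPM in GADD45G libraries, against 5.07, 6.50 and 6.79 CPM in GFP, a level close to that of Amigo2.

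Inside the cell, Hspb1 (ENSMUSG00000004951, chromosome 5, 135887919 to 135889563, plus strand) encodes the small heat shock protein HSP25, a chaperone that protects actin and other proteins under stress. It had 63.9, 58.8 and 66.3 CPM in GADD45G libraries, against 18.5, 18.3 and 20.1 CPM in GFP. All GADD45G libraries were above all GFP libraries. The fitted log2 change was 1.73 (SE 0.064, adjusted p = 1.8e-09), and 1.70 without library 3. The window of 250 bases before its start, chr5:135887669-135887918 (GRCm38.p6, plus strand, RefSeq), is shown because it was the only one of those of the 10 genes with the heat shock element letters GAANNTTC, which read alike on both strands. Capitals mark the matches at -117 and -97. Of all windows 6.69% held at least 1.
Hspb1: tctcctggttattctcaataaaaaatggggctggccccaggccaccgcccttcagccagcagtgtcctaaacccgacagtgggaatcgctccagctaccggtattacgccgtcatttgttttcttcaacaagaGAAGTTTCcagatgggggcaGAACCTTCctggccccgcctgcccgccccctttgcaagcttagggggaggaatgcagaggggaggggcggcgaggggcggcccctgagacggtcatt
Of 21 tested heat shock proteins and partners other than Hspb1, 13 rose and 3 fell with GADD45G (14 and 4 without library 3). Over all genes tested 30.6% were higher and 29.7% lower. The median log2 fold change of the 21 was 0.42. The largest of those named were for other small heat shock proteins, Hspb6 at 3.15 (SE 0.096, adjusted p = 3.81e-10) and Hspb8 at 1.46 (SE 0.050, adjusted p = 9.81e-10).

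Aspg (ENSMUSG00000037686, chromosome 12, 112106679 to 112127559, plus strand) encodes an asparaginase, an enzyme that splits asparagine. It had 4, 1 and 21 counts in GADD45G libraries, against 0, 2 and 17 in GFP, and 3, 3 and 0 counts in shGADD45G libraries, against 3, 1 and 5 in shLuc. These counts were under the filter of both fits, and library 3 of each group held most of the counts in GADD45G and in GFP. At this depth no difference was detectable. Asns, which makes asparagine, rose with GADD45G by a log2 fold change of 1.95 (SE 0.050, adjusted p = 1.01e-10).

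The other genes of the same programmes mostly rose with GADD45G. Their lists were also chosen with earlier results of these data known, so the counts are descriptions. The lists are not separate sets. Osmr is in both the pan-reactive and the gp130 list, and Serping1 is in both the A1 and the acute phase list. Over all genes tested 30.6% were higher and 29.7% lower, or 32.5% and 32.1% without GADD45G library 3. All 5 other pan-reactive genes were higher, with a median log2 fold change of 2.35, among them Cxcl10, a chemokine, at 4.92 (SE 0.073, adjusted p = 3.01e-12) and Gfap, the astrocyte intermediate filament, at 2.4 (SE 0.054, adjusted p = 4.47e-11). Of 10 other A1 genes 7 rose and 1 fell. Of 13 tested genes for other acute phase proteins 12 rose and 1 fell, with C3, the central complement component, at 4.72 (SE 0.055, adjusted p = 5.61e-13) and Lbp, which binds bacterial lipopolysaccharide, at 4.01 (SE 0.062, adjusted p = 3.83e-12). The 1 that fell was A2m, a broad protease inhibitor, which was named after its values were seen. Only 13 of the 30 acute phase genes listed passed the filter on low counts, and their median log2 fold change was 1.99, or 1.35 without library 3. Without that library 5, 7 and 12 genes of the 3 lists were higher. On the signalling side, 11 of 18 genes of gp130 cytokines, their receptors and C/EBP rose and 3 fell with and without library 3, among them Osmr, a receptor subunit for oncostatin M, at 2.35 (SE 0.049, adjusted p = 2.47e-11) and Cebpb at 2.19 (SE 0.085, adjusted p = 2.39e-09). Of 25 genes of IL-1, TNF and NF-kB signalling 20 rose and 1 fell (21 and 1 without library 3), with Relb at 1.57 (SE 0.066, adjusted p = 4.79e-09).

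With shGADD45G the 10 genes did not move as a block. Saa3 fell 6.85-fold, Serpina3n fell 1.72-fold and Hspb1 rose 1.61-fold against shLuc, and the other 6 tested were not called. That is 1 higher and 2 lower of 9, beside 5.15% of the 14914 genes tested that were higher and 5.27% that were lower. The median log2 fold change of the 9 was 0.0075, against 0.0066 over all genes tested. Without shGADD45G library 1, 4 of the 9 were higher and 2 lower, beside 9.08% and 8.99% of all genes tested, and Lcn2, Cp and Steap4 were the genes gained.

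Saa3 had 1.18, 2.28 and 2.23 CPM in shGADD45G libraries (22, 40 and 34 counts), against 12.6, 13.2 and 13 CPM in shLuc (204, 251 and 227 counts). All shGADD45G libraries were far below all shLuc libraries. Its log2 fold change was -2.78 (SE 0.23, adjusted p = 0.00029), and -2.51 without shGADD45G library 1. From the largest increase down it was at rank 14875 of 14914. The authors' deposited table gives it a log2 fold change of -2.782 with an adjusted p of 4.785e-24. Beside it, the microglia and macrophage markers summed to 125.9, 224.6 and 237.3 CPM in shGADD45G libraries, against 631.9, 667.3 and 582.9 CPM in shLuc, and 16 of the 18 were called lower, with a median log2 fold change of -2.28. Each of the 18 had counts in both groups. Their part in the fall of Saa3 was not tested.

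Serpina3n had 69.2, 112.9 and 117.5 CPM in shGADD45G libraries, against 169.3, 178.5 and 165.9 CPM in shLuc. Library 1 was the lowest, and all 3 were below shLuc. On the log2 scale the change was -0.78 (SE 0.17, adjusted p = 0.0165), and -0.57 without shGADD45G library 1. Without any shLuc library in turn the adjusted p was 0.0638 to 0.0772, so the call ends although the fold change was -0.75 to -0.80. Beside this fall stand the same microglia and macrophage values and those of the astrocyte markers. The astrocyte markers summed to 10764.4 to 12725.1 CPM in shGADD45G, against 14152.5 to 14651.8 CPM in shLuc. Of these 14, 5 were called lower, or 9 without shGADD45G library 1. The part of either list in the fall of Serpina3n was not tested.

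Hspb1 had 21.2, 21.5 and 16.7 CPM in shGADD45G libraries, against 13.6, 11.4 and 12 CPM in shLuc. The groups did not overlap, library 3 being nearest to shLuc. This gave a log2 fold change of 0.69 (SE 0.14, adjusted p = 0.013), and 0.64 without shGADD45G library 1. The adjusted p was 0.0864 without shLuc library 2 and 0.0753 without shLuc library 3. None of the other 21 heat shock genes was called with edgeR, DESeq2 or limma-voom, and by edgeR 3 were higher and 1 lower at an unadjusted p under 0.05. Without shGADD45G library 1, 4 were called higher and 1 lower, beside 9.08% and 8.99% of all genes tested.

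Lcn2, Cp and Steap4 shared a pattern within shGADD45G. Lcn2 had 45, 228.4 and 277.9 CPM in shGADD45G libraries 1 to 3, against 159.6, 159.2 and 156.8 CPM in shLuc. Library 1 was below and libraries 2 and 3 were above every shLuc library. Cp had 331.5, 504.1 and 654.8 CPM in shGADD45G libraries, against 422.7, 417.8 and 421.6 CPM in shLuc, and Steap4 had 26.9, 76.6 and 94.1 CPM, against 63.3, 66.1 and 66.5 CPM in shLuc. In both genes library 1 was again below and libraries 2 and 3 above the shLuc range. The log2 fold changes over the 3 libraries were 0.21 for Lcn2 (SE 0.47, adjusted p = 0.825), 0.24 for Cp (SE 0.19, adjusted p = 0.478) and 0.01 for Steap4 (SE 0.34, adjusted p = 0.992). Without library 1 they were 0.68 (adjusted p = 0.000435), 0.46 (adjusted p = 0.00735) and 0.39 (adjusted p = 0.0182). Without library 3 instead they were -0.22 (adjusted p = 0.831), -0.01 (adjusted p = 0.976) and -0.34 (adjusted p = 0.568), so the direction depends on which library is left out. Library 1 was also the one with the least Gadd45g, at 67.2 CPM, and with the lowest microglia and macrophage sum of its group, at 125.9 CPM, and the part of either in these values was not tested.

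S1pr3 ran the other way in that library, with 493.1, 351.1 and 360.3 CPM in shGADD45G libraries, against 411.3, 395.4 and 398.4 CPM in shLuc. Here library 1 was above and libraries 2 and 3 were below the shLuc range. Its log2 fold change was -0.00059 (SE 0.12, adjusted p = 0.998), and -0.17 (adjusted p = 0.0694) without library 1. Cd44 had 102.6, 106.5 and 114.6 CPM in shGADD45G libraries, against 123.2, 120.2 and 120.4 CPM in shLuc. Although every shGADD45G library was below every shLuc library, the log2 fold change of -0.17 (SE 0.076) did not pass the test (adjusted p = 0.199). Amigo2 had 4.47, 2.91 and 3.34 CPM in shGADD45G libraries, against 4.20, 2.62 and 3.83 CPM in shLuc, with overlapping groups and a log2 fold change of 0.02 (SE 0.26, adjusted p = 0.975).

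With shGADD45G, fewer genes of the same lists were called than with GADD45G, as they were over all genes tested. Of all genes tested 5.15% were higher and 5.27% lower, or 9.08% and 8.99% without shGADD45G library 1. The counts of the gp130 and NF-kB lists below are near these shares. Of the 13 other acute phase genes tested 2 rose and 4 fell, with Serpinf1, a secreted serpin, at 1.31 (SE 0.13, adjusted p = 0.000523) and Itih3 at -0.88 (SE 0.15, adjusted p = 0.00483). Of the 5 other pan-reactive genes 1 was called, Gfap, at -0.32 (SE 0.087, adjusted p = 0.0439). Among iron and copper genes 6 of 23 rose and 2 fell. Lrp2, which encodes megalin, an uptake receptor for lipocalin 2, rose by a log2 fold change of 1.5 (SE 0.11, adjusted p = 0.000188), and Steap3 fell by 0.78 (SE 0.083, adjusted p = 0.000698). Of 26 genes of IL-1, TNF and NF-kB signalling 2 rose and 2 fell, with Tnf at -2.61 (SE 0.33, adjusted p = 0.00145). Tnf had low levels, with means of 0.526 CPM in shGADD45G and 3.25 CPM in shLuc. It was also the gene of this list that fell with GADD45G, at -1.13 (SE 0.41, adjusted p = 0.035). In the gp130 and C/EBP list 1 of 18 rose and 1 fell. Of 9 other A1 genes 2 rose, Iigp1 at 0.76 (SE 0.12, adjusted p = 0.00417) and H2-T23 at 0.75 (SE 0.17, adjusted p = 0.0197), and 1 fell. Without shGADD45G library 1, 5 of 10 A1 genes were higher and 1 lower. Of 15 genes for hyaluronan and CD44 partners 3 rose, and without that library 3 rose and 1 fell. Among the 16 genes of sphingosine 1-phosphate signalling edgeR and limma-voom called 0 and DESeq2 called 1 lower, while 2 were higher and 1 lower by edgeR at an unadjusted p under 0.05, the same numbers that were called without shGADD45G library 1.

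The difference between the responses was tested in a fit of all 12 libraries, as the log2 fold change of GADD45G over GFP minus that of shGADD45G over shLuc. It was called in 8 of the 9 genes, beside 41% of the 15900 genes tested in either direction, and was positive in all 8. Saa3 had the largest difference, 5.92 (SE 1.20, adjusted p = 0.00121), which was 3.22 without GADD45G library 3 and 2.96 without both that library and shGADD45G library 1. Lcn2 followed with 4.94 (SE 0.61, adjusted p = 1.38e-05), then Cp with 3.31 and Serpina3n with 2.77. Steap4 at 1.79, Cd44 at 1.76, S1pr3 at 1.30 and Hspb1 at 1.03 were the smaller ones. Hspb1 was called higher in both experiments over all libraries, although its call with shGADD45G ended without shLuc library 2 or 3. Without shGADD45G library 1, Lcn2, Cp and Steap4 were called higher in both as well. Serpina3n was higher with GADD45G and lower with shGADD45G in every library. Saa3 was lower with shGADD45G in every library, but in GADD45G libraries 1 and 2 it was barely above GFP. Without GADD45G library 3 its increase was not called by edgeR (log2 fold change 0.45, adjusted p = 0.219). For Amigo2 the difference was -0.02 (SE 0.38, adjusted p = 0.974).

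Levels in the 4 groups on a common scaling showed that the controls themselves differed. Between the controls the cells, the virus and the table cannot be told apart, so these ratios are descriptions. ShLuc was above GFP by 13.3-fold for Lcn2, 11.4-fold for Saa3, 6.56-fold for Serpina3n, 5.34-fold for Cp, 2.46-fold for Steap4, 2.19-fold for S1pr3 and 1.76-fold for Cd44. Hspb1 and Amigo2 were lower in shLuc than in GFP, at 0.658 and 0.484 of its level. The summed astrocyte markers and the summed microglia and macrophage markers were also higher in shLuc than in GFP. Their part in these ratios was not tested. The 10 genes together took 0.229% to 0.230% of all counts in GADD45G, 0.0428% to 0.0433% in GFP, 0.111%, 0.139% and 0.160% in shGADD45G and 0.136% to 0.138% in shLuc.

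**Figure D3:**
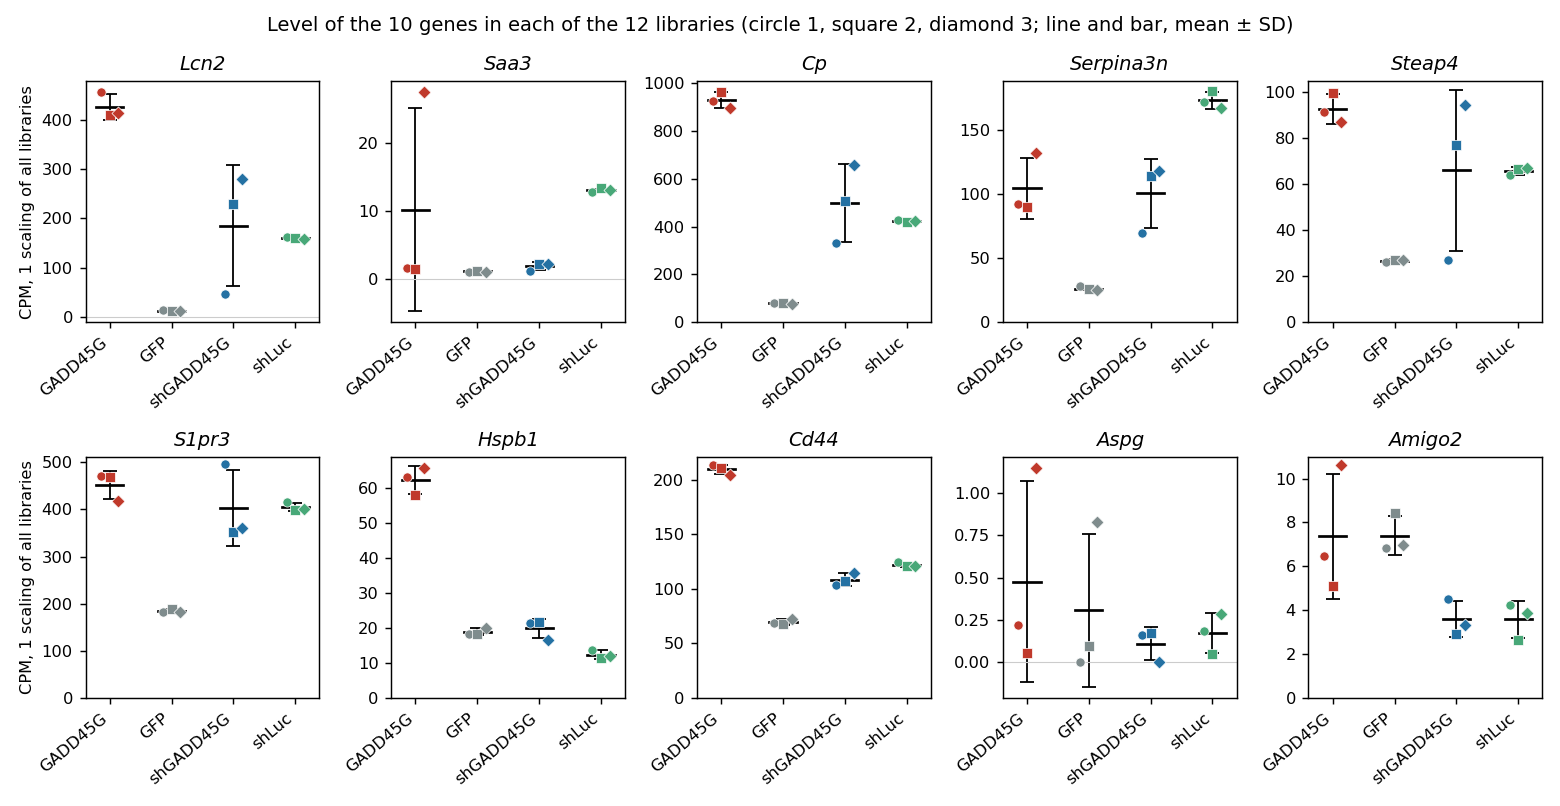
Level of each of the 10 genes (CPM, common scaling of all 12 libraries, linear axes) in GADD45G, GFP, shGADD45G and shLuc, with the mean as a line and the SD as a bar (n = 3). GFP has the lowest mean for Lcn2, Saa3, Cp, Serpina3n, Steap4, S1pr3 and Cd44, and the shGADD45G libraries of Lcn2, Cp and Steap4 spread more widely than those of any other group.

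On that scaling GADD45G was the highest group for Lcn2 at 426.6 ± 26 CPM (SD, n = 3), followed by shGADD45G at 184.6 ± 123.1, shLuc at 159.9 ± 1.72 and GFP at 12 ± 0.92. The ranges of shGADD45G and shLuc overlapped and the other neighbours were apart. Cp had the same order, with 928.9 ± 34.5 CPM in GADD45G, 499.2 ± 161.8 in shGADD45G, 424.3 ± 2.79 in shLuc and 79.5 ± 2.34 in GFP, and the same overlap. Steap4 ran from 92.7 ± 6.41 CPM in GADD45G through 66.2 ± 35.0 in shGADD45G and 65.9 ± 1.66 in shLuc to 26.8 ± 0.53 in GFP. Of neighbours by mean only shLuc and GFP were apart. ShGADD45G library 1, at 27 CPM, was inside the GFP range of 26.2 to 27.2 CPM. S1pr3 and Cd44 were highest in GADD45G at 452.3 ± 29.9 and 209.5 ± 4.26 CPM, then in shLuc at 405.2 ± 9 and 122.3 ± 1.81, in shGADD45G at 403.6 ± 80.3 and 108.5 ± 5.97 and in GFP at 184.7 ± 3.87 and 69.6 ± 2.52. All 4 groups of Cd44 were apart, whereas S1pr3 overlapped between shLuc and shGADD45G. For S1pr3, shGADD45G library 1, at 496.1 CPM, was also above every GADD45G library (417.8 to 470.5 CPM).

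The secreted Serpina3n and Saa3 were highest not in GADD45G but in shLuc. Serpina3n had 172.7 ± 6.64 CPM in shLuc, above GADD45G at 104.4 ± 23.7, shGADD45G at 100.4 ± 26.7 and GFP at 26.3 ± 1.51, and GADD45G and shGADD45G overlapped. Saa3 had 13 ± 0.28 CPM in shLuc, 10.2 ± 14.9 in GADD45G, 1.91 ± 0.62 in shGADD45G and 1.14 ± 0.088 in GFP, and every pair of neighbours overlapped. Hspb1 was highest in GADD45G at 62.2 ± 3.97 CPM and lowest in shLuc at 12.4 ± 1.17, with shGADD45G at 19.9 ± 2.74 and GFP at 18.9 ± 0.96 overlapping between them. Amigo2 had 7.40 ± 0.88 CPM in GFP and 7.37 ± 2.84 in GADD45G, overlapping, and 3.59 ± 0.81 in shGADD45G and 3.58 ± 0.83 in shLuc, also overlapping.

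Per length, in the deposited FPKM, Lcn2 was the most abundant of the 10 in GADD45G at 161.8 ± 9.65, which is above 99.0% of protein-coding genes listed, but seventh in GFP at 4.56 ± 0.35. S1pr3 followed in GADD45G at 100.8 ± 6.74 and led in GFP at 41.2 ± 0.82, in shGADD45G at 89.8 ± 17.8 and in shLuc at 90.4 ± 2.06. Cp was the third in GADD45G at 96.6 ± 3.77. In shLuc, Serpina3n came second at 83.3 ± 3.15. Aspg was the last in all groups, at 0.134 ± 0.167 in GADD45G and under 0.1 in each of the others.

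To find genes with a pattern like that of Lcn2, profiles of log2(CPM + 0.5) over the 12 libraries were centred and compared by their root mean square difference with 12591 protein-coding genes. The closest were C3 at 0.505, the matrix protein gene Tnc at 0.660, the growth factor gene Bmp3 at 0.707, Cp at 0.710 and Lbp at 0.723 log2 units. Cp, the fourth, was thus the only one of the 10 among them. Next among the 10 were Serpina3n at rank 135 and Steap4 at rank 152. Cd44 was at rank 405, S1pr3 at 572, Hspb1 at 1552 and Saa3 at 1977. Amigo2 was at rank 10794 with a difference of 2.20, and Aspg was under the minimum level for this comparison. The measure compares size as well as direction of change, and all profiles share the same libraries and scaling.

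**Figure D4:**
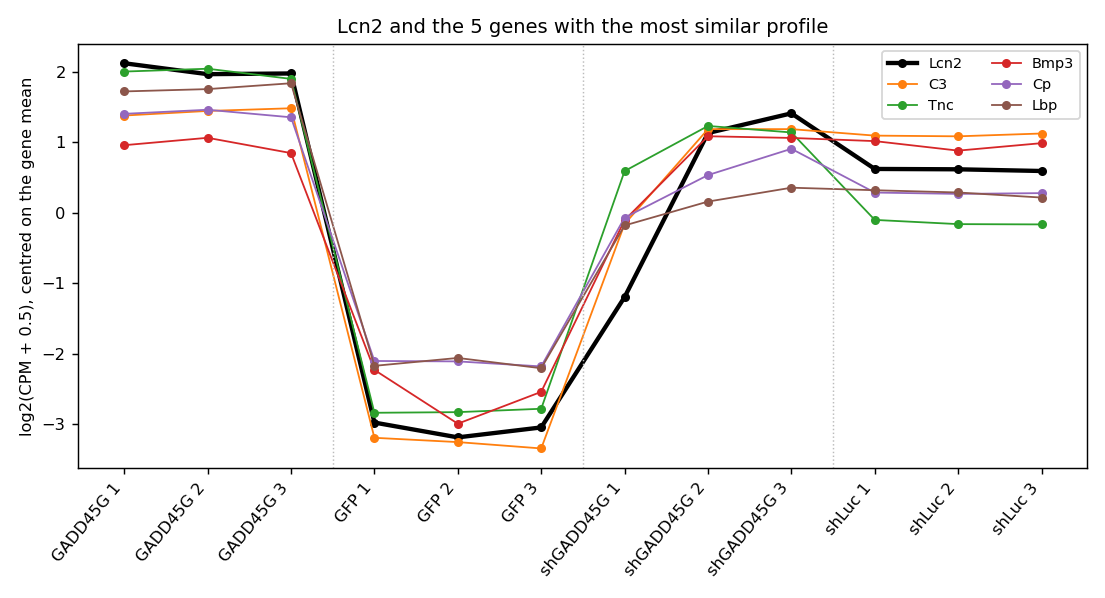
Centred log2(CPM + 0.5) of Lcn2 (thick black) and the 5 genes closest to it in each of the 12 libraries. All 6 are above their own mean in GADD45G and lowest in GFP, and Lcn2 has the lowest value of the 6 in shGADD45G library 1.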

How the data were processed

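Total RNA of 12 libraries was sequenced with stranded kits, per the labels' protocols. STAR 2.5, mm10, HTSeq 0.6.1 and DESeq2 are named in the submitters' processing notes, without settings. Each deposited table holds the authors' raw read counts per gene, and the tests start from these counts. It also holds the authors' normalized signal (counts divided by a size factor per library, not used here), FPKM per the file headers, and the authors' own log2 fold changes and p-values per the file headers, which are printed only where credited. Columns named G45g, shG45g and shCtrl were taken as GADD45G, shGADD45G and shLuc.

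Each experiment was fitted alone with edgeR 4.0.16 (R 4.3.3; filterByExpr, minimum count 10; TMM; quasi-likelihood test; Benjamini-Hochberg adjustment over all genes tested, threshold 0.05), and this is the test behind every adjusted p not otherwise named. The difference between the experiments was tested in a fit of all 12 libraries. CPM are on TMM-scaled library sizes. The procedure was tested on simulated data. Alternatives were other scalings, filters, a minimum fold, limma-voom (limma 3.58.1), DESeq2 1.42.0, a replicate block, a fit of all libraries and leaving out each library. The members and gene lists were chosen with earlier results of these data known. From each list up to 3 called genes with the smallest p per experiment could be named, beside all 10 members, Gadd45g, paralogs and the 5 genes most like Lcn2. The likeness was limited to genes averaging 1 CPM or more. Motifs were searched in RefSeq promoter windows of GRCm38.p6.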

Additional observations from a re-analysis of the deposited data

Results flagged for a closer look

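In 8 of the genes the change of GADD45G over GFP differed from that of shGADD45G over shLuc by the 12-library test with edgeR's quasi-likelihood method. The difference, the first minus the second in log2 units, was 5.92 for Saa3, 4.94 for Lcn2, 3.31 for Cp and 2.77 for Serpina3n. It was 1.79 for Steap4, 1.76 for Cd44, 1.30 for S1pr3 and 1.03 for Hspb1. For Saa3 it was 3.22 without GADD45G library 3.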

How the results depend on the processing

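With GADD45G, the increases of Lcn2, Cp, Serpina3n, Steap4, S1pr3, Hspb1 and Cd44 kept their direction and their call under all 14 alternatives. The call of Saa3 was also lost with limma-voom (1.81, adjusted p = 0.191), and DESeq2 gave it no adjusted p there or in the difference. The 14 alternatives leave out the minimum change of 2-fold. With it, edgeR called 7 of the genes higher with GADD45G, and 8 were higher at an unadjusted p under 0.05. The differences between the experiments were called for the same 8 genes in every alternative that gave an adjusted p, including that without both GADD45G library 3 and shGADD45G library 1, chosen after seeing the data. Gadd45g with GADD45G was no longer called without a filter (0.148) or with the replicate block (0.155), and ranged from 0.1 to 0.184 with 1 library left out, the call ending in 4 of these 6 fits. With a minimum change of 2-fold, shGADD45G gave 0 genes higher (edgeR, 0 at an unadjusted p under 0.05; DESeq2 and limma-voom without the minimum gave 1) and 1 lower, 1 in all. With 1 library left out it gave 0 to 4 higher, 1 to 2 lower and 1 to 6 in all. The cause was not tested.

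Values that changed sign had not passed the test. Amigo2 with GADD45G was -0.000167 with RLE factors, -0.013 with upper quartile factors, -0.000111 with DESeq2, -0.0592 with limma-voom, -0.00593 without a filter, -0.0418 with the replicate block and -0.00661 in the fit of all libraries, and ranged from -0.341 to 0.239 with 1 library left out. With shGADD45G, Lcn2 was -0.169 with limma-voom and -0.0961 with the replicate block, and Steap4 was -0.0245 with upper quartile factors, -0.194 with limma-voom and -0.144 with the replicate block. Amigo2 was -0.00883 with upper quartile factors. With 1 library left out the ranges were -0.215 to 0.677 for Lcn2, -0.00967 to 0.464 for Cp, -0.34 to 0.387 for Steap4, -0.173 to 0.0876 for S1pr3 and -0.177 to 0.156 for Amigo2. The difference for Amigo2 was 0.0174 with a filter of 1 CPM and ranged from -0.373 to 0.188. Same-numbered libraries did not deviate together, with correlations of -0.0244 to 0.0803, so the numbers do not pair them. Depth limits Aspg and Amigo2, and Saa3 outside shLuc and GADD45G library 3. With GADD45G, the increase of Saa3 also rests on library 3, at 498 counts against 30 and 27 in libraries 1 and 2.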
